A study of Homo sapiens with 12 samples.

Results

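The genes described here make cholesterol or control its synthesis, and they were followed in MDA-MB231 cells after loss of the RNA-binding proteins TDP43 or SRSF3 and in the RNA that copurified with each protein. They were chosen by symbol and numbered 8 among the 27745 genes of the count table: the synthesis enzymes HMGCS1, IDI1, FDFT1, SQLE and LSS, the sterol sensor INSIG1, and SREBF1 and SREBF2, which encode the transcription factors SREBP1 and SREBP2. All 8 were found in the count table and in the RIP table of 60675 genes, and all 8 passed the filter on low counts.

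MDA-MB231 is an established human breast cancer cell line. Its cells expressed by lentivirus a hairpin against TDP43 (sh_TDP43), a hairpin against SRSF3 (sh_SRSF3) or a control hairpin (sh_control), and stably infected cells were harvested in duplicate, so each group held 2 RNA-seq libraries; the labels name 1 hairpin target per group and do not tell whether the duplicates are separate cultures, so the spread behind each p-value may be only technical. For RNA immunoprecipitation (RIP), in which RNA held by a tagged protein is recovered with an antibody, cells that overexpressed Flag-tagged TDP43 or Flag-tagged SRSF3 gave 1 RIP library and 1 input library each. A combined knockdown named in the labels was not analysed here. TDP43, encoded by TARDBP, is a nuclear protein that binds RNA and keeps cryptic exons out of messages, and SRSF3 is a splicing factor of the serine- and arginine-rich family.

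Cells build cholesterol from acetyl-CoA through mevalonate, isoprenoid units, squalene and lanosterol. SREBP proteins are made as precursors in the endoplasmic reticulum, where INSIG proteins hold them together with their escort SCAP when sterols are plentiful. When sterols fall, SCAP carries the precursors to the Golgi, proteases release their DNA-binding part, and this part turns on the synthesis genes, INSIG1 among them, from sterol regulatory elements that usually lie near NF-Y and Sp1 sites.

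Counted reads ranged from 34457445 to 38326930 per shRNA library. Levels are given as counts per 1e6 counted reads after TMM scaling (CPM). TARDBP was at 34.4 and 31.3 CPM in the sh_TDP43 libraries, against 168 and 125 CPM in the sh_control libraries, a log2 change of -2.15 (SE 0.13, edgeR quasi-likelihood adjusted p = 3.51e-08). SRSF3 was at 64.1 and 61.7 CPM in the sh_SRSF3 libraries, against 459 and 404 CPM in the sh_control libraries, a log2 change of -2.78 (SE 0.1, adjusted p = 1.63e-10 by the same edgeR test). Each knockdown also lowered the other target: SRSF3 fell by 1.23 on the log2 scale in sh_TDP43 (adjusted p = 3.05e-07) and TARDBP fell by 0.48 in sh_SRSF3 (adjusted p = 0.00326, and 0.0571 without sh_control replicate 1). The MDA-MB231 markers VIM, CD44, CAV1, AXL, MSN and KRT18 had group means from 252 to 2340 CPM. They shifted with the knockdowns: in sh_TDP43 AXL was 3.75-fold and CAV1 3.14-fold lower than in sh_control, and in sh_SRSF3 CD44 was 2.06-fold lower and CAV1 1.48-fold higher. In sh_TDP43 1 of the 6 rose and 4 fell, and in sh_SRSF3 2 rose and 3 fell. Of 7 markers of luminal or epithelial cells, PGR and FOXA1 were near 0, ESR1, EPCAM and GATA3 had group means from 0.484 to 11.9 CPM, ERBB2 was at 87.4 CPM in sh_TDP43, 89.4 CPM in sh_SRSF3 and 86.2 CPM in sh_control, and CDH1 was at 2.61 CPM in sh_TDP43, 15.4 CPM in sh_SRSF3 and 1.27 CPM in sh_control. Of 10 markers of blood, kidney and liver cells, HBB and CYP7A1 had no read and the highest group mean was 2.98 CPM, that of WT1 in sh_TDP43. The part of such shifts in cell state in the changes below was not tested, and in bulk RNA fewer cells with a message and less of it per cell cannot be told apart.

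The promoters of SREBF2, HMGCS1 and INSIG1 are shown because these SREBP-regulated genes of the set moved in different directions when SRSF3 was lowered: SREBF2 and HMGCS1 rose and INSIG1 fell. Each line holds the 200 bases before the start of the gene in RefSeq (GRCh38.p14), written from 5′ to 3′ on the strand of the gene: chr22:41832905-41833104 on the plus strand, chr5:43313413-43313612 on the minus strand and chr7:155297678-155297877 on the plus strand. Capitals mark the searched letters of a sterol regulatory element (TCACNCCAC), an NF-Y box (CCAAT, or ATTGG when it lies on the other strand) and an E-box (CACGTG), which SREBP1 can also bind.
SREBF2: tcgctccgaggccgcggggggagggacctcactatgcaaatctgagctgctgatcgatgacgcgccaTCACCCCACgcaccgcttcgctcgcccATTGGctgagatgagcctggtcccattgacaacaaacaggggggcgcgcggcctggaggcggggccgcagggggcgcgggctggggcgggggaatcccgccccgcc
HMGCS1: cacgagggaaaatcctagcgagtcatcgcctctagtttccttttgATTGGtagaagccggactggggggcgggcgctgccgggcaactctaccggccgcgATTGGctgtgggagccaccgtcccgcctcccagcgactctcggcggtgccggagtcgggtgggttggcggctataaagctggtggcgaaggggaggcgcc
INSIG1: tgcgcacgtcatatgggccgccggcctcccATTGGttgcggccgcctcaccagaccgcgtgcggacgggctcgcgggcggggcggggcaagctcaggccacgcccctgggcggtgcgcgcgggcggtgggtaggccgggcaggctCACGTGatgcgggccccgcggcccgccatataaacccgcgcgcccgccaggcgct

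Promoter sequences in RefSeq matched 6 of the 8 genes, namely SREBF2, HMGCS1, INSIG1, IDI1, LSS and SREBF1. Searched on both strands, the sterol element stood in the SREBF2 promoter, with its first base at position -133 before the start, and in no other of these 6; it is held by 0.709% of 35116 promoters of the same length. HMGCS1 has 2 promoter entries, of which the one with the NF-Y box is printed, and IDI1 has 3. The NF-Y box stood in the promoters of SREBF2 (position -106), HMGCS1 (positions -155 and -100), INSIG1 (position -170), LSS and, in 2 of its 3 entries, IDI1, and it is held by 28% of all promoters. The E-box, held by 5.49% of promoters, stood in that of INSIG1 at position -55. An Sp1 box (GGGCGG, either strand), not set in capitals, stood in all 6, as it does in 40.1% of promoters. No searched motif overlapped another kind in the lines above. These matches are of letters only, and a gene without one lacks those letters in this window.

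In sh_TDP43 cells INSIG1 fell most, FDFT1, SREBF2 and IDI1 rose, and SREBF1 and LSS fell less. In sh_SRSF3 cells INSIG1 had a log2 change of the same size, HMGCS1, IDI1, SREBF2 and SQLE rose, and SREBF1 and LSS fell. The comparison of each knockdown with sh_control asks which of these messages changed under each hairpin. Each knockdown also lowered the message of the other target, so the parts of TDP43 and SRSF3 in a change cannot be told apart. Of the 8 genes, 6 passed an adjusted p of 0.05 in sh_TDP43 (3 higher and 3 lower), where 44.8% of the 15026 genes tested passed (20.7% higher and 24.1% lower). In sh_SRSF3 7 of the 8 passed (4 higher and 3 lower), where 66.9% of all genes tested passed (32.5% higher and 34.4% lower), so in sh_SRSF3 most genes of any kind were called. The median log2 change of the 8 genes was -0.24 in sh_TDP43, where that of all genes tested was 0.0, and 0.16 in sh_SRSF3, where that of all genes tested was -0.03. The libraries of the 2 groups did not overlap in 8 of 8 genes in either comparison, but neither did they in 73.2% of all genes tested in sh_TDP43 and in 83.2% in sh_SRSF3. Both comparisons use the same sh_control libraries.

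**Figure D1:**
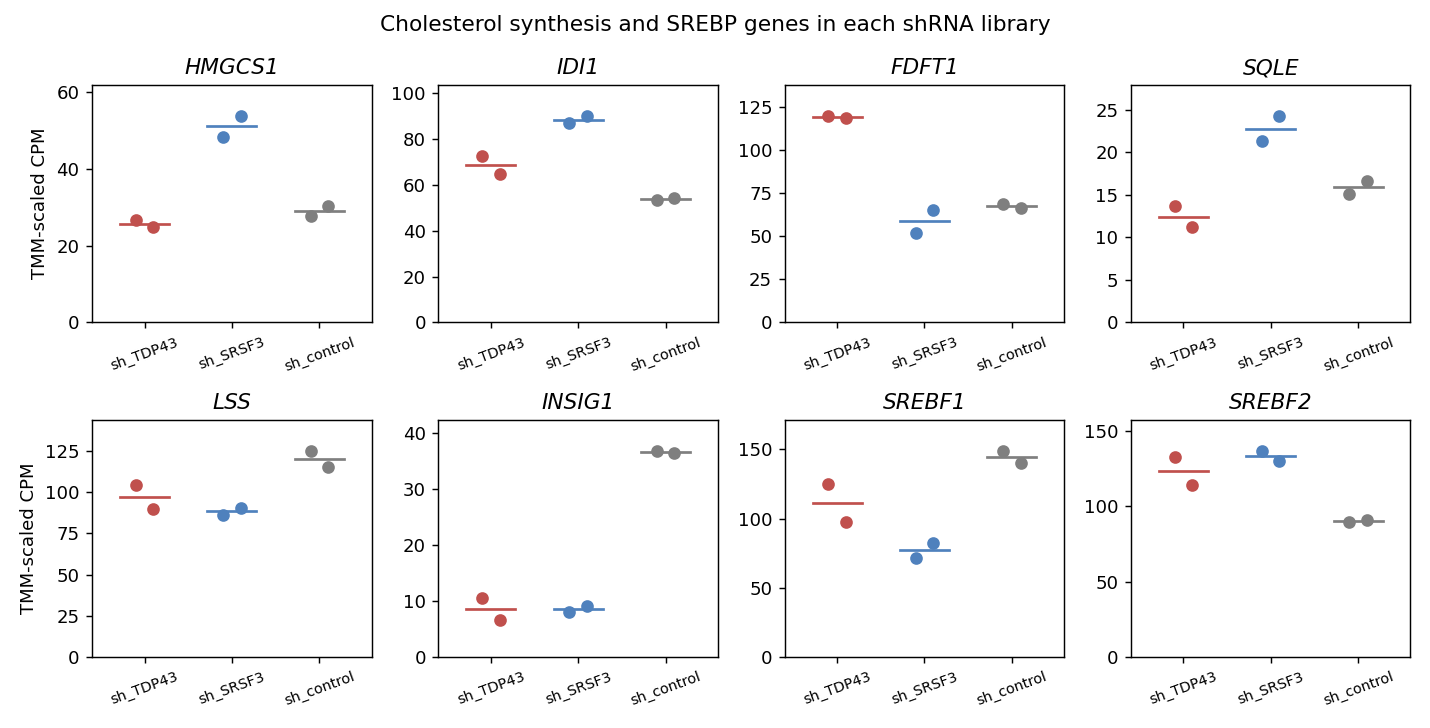
TMM-scaled CPM (y axis, from 0, a scale of its own in each panel) of each gene in the 2 libraries of sh_TDP43, sh_SRSF3 and sh_control; points are libraries and bars are group means. INSIG1 lies below 11 CPM in all knockdown libraries and above 36 CPM in both sh_control libraries, FDFT1 is high in sh_TDP43, and HMGCS1, SQLE and IDI1 are high in sh_SRSF3.

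HMGCS1 makes HMG-CoA, an early intermediate of the pathway (ENSG00000112972; GRCh37 chromosome 5, 43289497 to 43313614, minus strand). It was at 26.6 and 24.7 CPM in the sh_TDP43 libraries and at 48.2 and 53.7 CPM in the sh_SRSF3 libraries, against 27.8 and 30.3 CPM in the sh_control libraries. The sh_SRSF3 libraries stood well above all others, and the sh_TDP43 libraries lay just under the sh_control libraries. In sh_SRSF3 HMGCS1 rose 1.75-fold (log2 change 0.81, SE 0.11, adjusted p = 1.75e-05), and in sh_TDP43 its log2 change was -0.18 (SE 0.11, adjusted p = 0.208), which did not pass. Here and below, adjusted p-values come from edgeR's quasi-likelihood test with Benjamini-Hochberg adjustment over all genes tested.

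IDI1 interconverts the isoprenoid units isopentenyl and dimethylallyl diphosphate (ENSG00000067064; GRCh37 chromosome 10, 1085848 to 1095110, minus strand). It was at 72.9 and 64.7 CPM in the sh_TDP43 libraries and at 86.9 and 90.2 CPM in the sh_SRSF3 libraries, against 53.3 and 54.3 CPM in the sh_control libraries. The 3 groups did not overlap, and both knockdowns stood above sh_control. IDI1 rose 1.65-fold in sh_SRSF3 (log2 change 0.72, SE 0.1, adjusted p = 1.31e-05) and 1.28-fold in sh_TDP43 (log2 change 0.35, SE 0.1, adjusted p = 0.00793); the sh_TDP43 call was lost without sh_TDP43 replicate 1 (adjusted p = 0.106).

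FDFT1, squalene synthase, commits the pathway to sterols (ENSG00000079459; GRCh37 chromosome 8, 11653082 to 11696818, plus strand). It was at 120 and 119 CPM in the sh_TDP43 libraries and at 51.9 and 65.6 CPM in the sh_SRSF3 libraries, against 68.6 and 66.5 CPM in the sh_control libraries. Both sh_TDP43 libraries were well above the rest, while the upper sh_SRSF3 library lay next to the sh_control libraries. FDFT1 rose 1.77-fold in sh_TDP43 (log2 change 0.83, SE 0.11, adjusted p = 3.59e-05). In sh_SRSF3 its log2 change of -0.2 (SE 0.11, adjusted p = 0.117) did not pass, but it passed without sh_SRSF3 replicate 2 (log2 change -0.40, adjusted p = 0.0153) and with upper-quartile scaling (-0.36, adjusted p = 0.00954). A gene on the opposite strand, RP11-297N6.4, overlaps it and held 0.0526 to 0.175 CPM.

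SQLE, squalene epoxidase, catalyses the next oxygen-dependent step and is a second control point of the pathway (ENSG00000104549; GRCh37 chromosome 8, 126010739 to 126034525, plus strand). It was at 13.7 and 11.2 CPM in the sh_TDP43 libraries and at 21.3 and 24.3 CPM in the sh_SRSF3 libraries, against 15.1 and 16.7 CPM in the sh_control libraries. The 3 groups did not overlap, in the order that HMGCS1 also had. SQLE rose 1.44-fold in sh_SRSF3 (log2 change 0.52, SE 0.14, adjusted p = 0.00498), a call lost without sh_SRSF3 replicate 2 (log2 change 0.41, adjusted p = 0.0632). In sh_TDP43 its log2 change was -0.35 (SE 0.15, adjusted p = 0.063), and without sh_TDP43 replicate 1 the adjusted p was 0.0448.

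LSS, lanosterol synthase, closes squalene epoxide into the first sterol (ENSG00000160285; GRCh37 chromosome 21, 47608055 to 47648738, minus strand). It was at 104 and 89.7 CPM in the sh_TDP43 libraries and at 86 and 90.4 CPM in the sh_SRSF3 libraries, against 125 and 115 CPM in the sh_control libraries. Both knockdowns lay below sh_control and overlapped each other. LSS fell by 0.45 on the log2 scale in sh_SRSF3 (SE 0.1, adjusted p = 0.00118) and by 0.31 in sh_TDP43 (SE 0.1, adjusted p = 0.0197). The sh_TDP43 call was lost without sh_TDP43 replicate 2 (log2 change -0.20, adjusted p = 0.234), without sh_control replicate 1 (adjusted p = 0.0885) and with upper-quartile scaling (adjusted p = 0.0802). An overlapping gene on the same strand held 0.175 to 0.301 CPM.

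INSIG1, the sterol-dependent anchor of SCAP and SREBP and itself a target of SREBP, changed most (ENSG00000186480; GRCh37 chromosome 7, 155089486 to 155101945, plus strand). It was at 10.6 and 6.58 CPM in the sh_TDP43 libraries and at 8.08 and 9.09 CPM in the sh_SRSF3 libraries, against 36.9 and 36.4 CPM in the sh_control libraries. All 4 knockdown libraries lay far below the sh_control libraries, and the range of the sh_TDP43 libraries enclosed that of the sh_SRSF3 libraries. INSIG1 was 4.27-fold lower in sh_TDP43 (log2 change -2.09, SE 0.18, adjusted p = 9.53e-07) and 4.27-fold lower in sh_SRSF3 (log2 change -2.09, SE 0.18, adjusted p = 2.21e-07). In sh_TDP43 that change lay at percentile 1.05 of all genes tested, and in sh_SRSF3, where more genes fell far, at percentile 9.3. These calls held under every alternative run for the shRNA comparisons.

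SREBF1 encodes SREBP1, which acts mostly on fatty acid genes (ENSG00000072310; GRCh37 chromosome 17, 17713713 to 17740316, minus strand). It was at 125 and 97.6 CPM in the sh_TDP43 libraries and at 71.8 and 82.6 CPM in the sh_SRSF3 libraries, against 149 and 140 CPM in the sh_control libraries. The 3 groups did not overlap, with sh_SRSF3 lowest. SREBF1 was 1.87-fold lower in sh_SRSF3 (log2 change -0.91, SE 0.12, adjusted p = 1.14e-05) and 1.3-fold lower in sh_TDP43 (log2 change -0.38, SE 0.12, adjusted p = 0.0177). The sh_TDP43 call was lost without sh_TDP43 replicate 2 (log2 change -0.20, adjusted p = 0.263), without sh_control replicate 1 (adjusted p = 0.0616) and with upper-quartile scaling (adjusted p = 0.0573). RAI1 lies on the opposite strand and overlaps SREBF1, and the counts carried no strand; RAI1 averaged 72.8 CPM in sh_TDP43 and 64.2 CPM in sh_SRSF3, against 79.7 CPM in sh_control (log2 change -0.31 in sh_SRSF3, adjusted p = 0.0076), and its part in the SREBF1 values was not tested.

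SREBF2 encodes SREBP2, the main activator of cholesterol synthesis genes (ENSG00000198911; GRCh37 chromosome 22, 42229083 to 42303312, plus strand). It was at 133 and 114 CPM in the sh_TDP43 libraries and at 137 and 130 CPM in the sh_SRSF3 libraries, against 89.8 and 91.1 CPM in the sh_control libraries. Both knockdowns stood above sh_control and overlapped each other. SREBF2 rose 1.48-fold in sh_SRSF3 (log2 change 0.56, SE 0.1, adjusted p = 0.000145) and 1.37-fold in sh_TDP43 (log2 change 0.45, SE 0.1, adjusted p = 0.00187). SREBF2 and SREBF1 thus changed in opposite directions in each knockdown, with the limits on the sh_TDP43 call of SREBF1 given above.

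**Figure D2:**
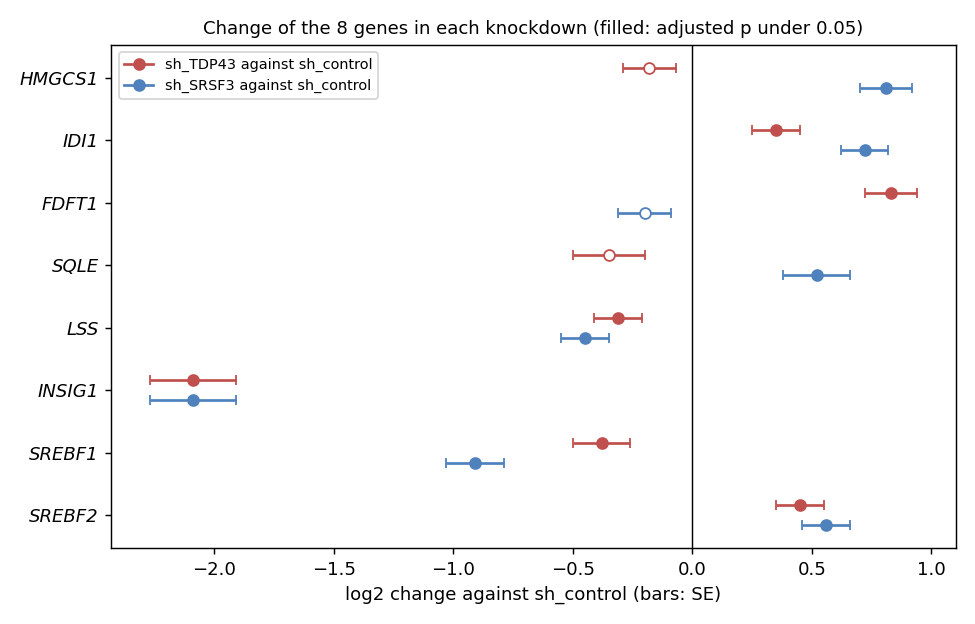
Log2 change of each gene against sh_control (x axis; bars, SE of the fit; filled points, adjusted p under 0.05) in sh_TDP43 and sh_SRSF3, 2 libraries per group. INSIG1 sits at -2.09 in both knockdowns, and HMGCS1, FDFT1 and SQLE sit on opposite sides of 0 in the 2 knockdowns.

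The knockdowns were also set against each other, which asks where a message stood at another level under one hairpin than under the other. Of the 8 genes 5 passed (2 higher in sh_TDP43 and 3 lower), where 65.5% of all genes tested passed (33.5% higher and 32.0% lower). The libraries did not overlap in the same 5 genes, where 83.8% of all genes tested did not. FDFT1 was 2.04-fold higher in sh_TDP43 than in sh_SRSF3 (log2 difference 1.03, SE 0.11, adjusted p = 1.63e-06) and SREBF1 was 1.44-fold higher (0.53, SE 0.12, adjusted p = 0.00131). HMGCS1 was 1.99-fold lower in sh_TDP43 than in sh_SRSF3 (log2 difference -0.99, SE 0.11, adjusted p = 2.81e-06), SQLE was 1.83-fold lower (-0.88, SE 0.14, adjusted p = 0.000105) and IDI1 was 1.29-fold lower (-0.37, SE 0.09, adjusted p = 0.00375). The IDI1 call was lost without sh_TDP43 replicate 2 (log2 difference -0.27, adjusted p = 0.0764) and with upper-quartile scaling (-0.12, adjusted p = 0.284). INSIG1 (log2 difference 0.0, SE 0.19), LSS (0.13, SE 0.1) and SREBF2 (-0.11, SE 0.1) did not pass, and with upper-quartile scaling LSS did (0.38, adjusted p = 0.00332).

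Per kilobase of exon, the order of the genes differed between groups. In sh_TDP43, FDFT1 stood first at 23.0 ± 0.146 CPM per kb (SD, n = 2), followed by IDI1 at 19.2, SREBF2 at 16.4, SREBF1 at 13.9, LSS at 13.4, HMGCS1 at 5.46, SQLE at 2.89 and INSIG1 at 2.35 CPM per kb; the library ranges of SREBF2 and SREBF1, of SREBF1 and LSS, and of SQLE and INSIG1 overlapped. In sh_SRSF3, IDI1 stood first at 24.7 ± 0.646 CPM per kb, followed by SREBF2 at 17.7, LSS at 12.2, FDFT1 at 11.3, HMGCS1 at 10.8, SREBF1 at 9.61, SQLE at 5.3 and INSIG1 at 2.35 CPM per kb; the ranges overlapped between LSS, FDFT1, HMGCS1 and SREBF1, each with the next. In sh_control, SREBF1 stood first at 18.0 ± 0.77 CPM per kb, followed by LSS at 16.6, IDI1 at 15.0, FDFT1 at 13, SREBF2 at 12, INSIG1 at 10, HMGCS1 at 6.18 and SQLE at 3.69 CPM per kb, with no overlap between neighbours. INSIG1 was thus last in both knockdowns, while in sh_control it stood above HMGCS1 and SQLE.

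Among the 8 genes, profiles were compared by the root mean square difference of log2 CPM, each gene centred on its mean over the 6 libraries. IDI1 and SREBF2 were closest (0.111), followed by HMGCS1 and SQLE (0.13) and by LSS and SREBF1 (0.211). INSIG1 was farthest from IDI1 (1.26). Over all genes tested, the nearest were FAM177A1 (0.0326) and RBFOX2 (0.0346) for HMGCS1, AHCTF1 (0.0229) for IDI1, SAP30L (0.0634) and FAM189B (0.0755) for FDFT1, ASF1B (0.058) and DUSP11 (0.059) for SQLE. For the other genes they were DSTN (0.0321) and ATE1 (0.042) for LSS, GPR3 (0.065) and OXTR (0.101) for INSIG1, YIPF4 (0.0765) and HDAC4 (0.0786) for SREBF1, and FAM188A (0.0377) and DDHD1 (0.0552) for SREBF2. None of these nearest genes was on the lists of sterol or fatty acid genes below.

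The other enzymes of cholesterol synthesis were more often higher than lower. Of 17 listed, 8 rose and 3 fell in sh_TDP43 (median log2 change 0.28), and 7 rose and 2 fell in sh_SRSF3 (median 0.17). Of all genes tested, 20.7% were called higher and 24.1% lower in sh_TDP43, and 32.5% higher and 34.4% lower in sh_SRSF3. The counts of this list and of the lists below stand beside these shares, and the difference from them was not tested. Without sh_TDP43 replicate 1 or replicate 2, 5 rose in sh_TDP43, and with upper-quartile scaling 4 fell in sh_SRSF3. GGPS1 is counted in this list, though it makes the geranylgeranyl donor on a side branch and not a sterol. It rose by 0.45 in sh_TDP43 and by 1.36 in sh_SRSF3 on the log2 scale. Without sh_TDP43 replicate 2 its log2 change in sh_TDP43 was 0.34 and the call was lost. HSD17B7, which acts on sterols after lanosterol, had log2 changes of 0.55 in sh_TDP43 and 1.04 in sh_SRSF3, but near-identical copies elsewhere in the genome make its counts uncertain, as they do for FDPS and CYP51A1 of this list. The HSD17B7 call in sh_TDP43 was lost without sh_TDP43 replicate 2 (adjusted p = 0.0527) and without sh_control replicate 1 (0.0547). The pair of sterol C14 reductases split: LBR fell by 1.09 in sh_TDP43 and TM7SF2 fell by 1.33 in sh_SRSF3 on the log2 scale.

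Genes that process SREBP or sense sterols fell more often than they rose in sh_TDP43. Of 9 listed, 2 rose and 6 fell in sh_TDP43 (median log2 change -0.56), and 3 rose and 2 fell in sh_SRSF3 (median -0.05; 4 fell with upper-quartile scaling). SCAP, the escort of SREBP, was at 57.2 ± 5.34 CPM in sh_TDP43, against 104 ± 8.33 CPM in sh_control, and fell by 0.86 on the log2 scale (adjusted p = 1.26e-05). The Golgi proteases that cut SREBP in turn both fell in sh_TDP43, MBTPS1 by 0.72 and MBTPS2 by 1.04, and MBTPS2 fell in sh_SRSF3 by 1.41. RNF145, a ubiquitin ligase with a sterol-sensing domain, had log2 changes of 0.41 in sh_TDP43 and 0.86 in sh_SRSF3, and C12orf49, which is needed for SREBP activation, of 0.38 in sh_TDP43 and 0.79 in sh_SRSF3. The C12orf49 call in sh_TDP43 was lost without sh_TDP43 replicate 1 (adjusted p = 0.0622).

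Genes of sterol uptake, transport and storage changed in both directions. Of 9 listed, 1 rose and 4 fell in sh_TDP43 (median log2 change -0.26), and 2 rose and 3 fell in sh_SRSF3 (median -0.05). Without sh_TDP43 replicate 2, and likewise without sh_control replicate 2, 1 of the 9 fell in sh_TDP43. SCARB1, the HDL receptor, fell by 1.51 in sh_SRSF3. STARD4, a cytosolic sterol carrier, fell by 0.43 in sh_TDP43 and had a log2 change of 0.39 in sh_SRSF3; the sh_TDP43 call was lost without sh_TDP43 replicate 2 (adjusted p = 0.084) and without sh_control replicate 2 (0.0626), and that in sh_SRSF3 without sh_control replicate 1 (0.0756) and with upper-quartile scaling (0.0843). TMEM97, an NPC1-interacting protein of the endoplasmic reticulum, fell by 0.71 in sh_TDP43. The lysosomal exporters changed in one knockdown each, NPC1 with a log2 change of 0.41 in sh_TDP43 and NPC2 with one of 0.6 in sh_SRSF3.

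Among 6 genes of the liver X receptor (LXR) and of sterol efflux, 2 rose and 2 fell in sh_TDP43 (median log2 change -0.02), and 2 rose and 3 fell in sh_SRSF3 (median -0.68). NR1H3, which encodes LXR alpha, was at 17 ± 2.24 CPM in sh_TDP43 and at 4.22 ± 0.737 CPM in sh_SRSF3, against 9.06 ± 0.0838 CPM in sh_control, log2 changes of 0.91 in sh_TDP43 (adjusted p = 0.000598) and -1.1 in sh_SRSF3 (adjusted p = 9.28e-05). NR1H2, which encodes LXR beta, had log2 changes of 0.56 in sh_TDP43 and 0.61 in sh_SRSF3. The sterol exporter ABCG1 fell by 1.09 in sh_TDP43 and by 1.82 in sh_SRSF3, and ABCA1 fell by 0.61 in sh_TDP43. Both sh_TDP43 calls were lost without sh_TDP43 replicate 2 (adjusted p = 0.13 for ABCG1 and 0.245 for ABCA1) and without sh_control replicate 2 (0.128 and 0.155), and that of ABCA1 also with DESeq2 (0.206). CH25H, which makes 25-hydroxycholesterol, was at 0.361 and 0.166 CPM in the sh_SRSF3 libraries, against 2.37 and 5.69 CPM in the sh_control libraries (log2 change -3.93, SE 0.64, adjusted p = 8.44e-05). APOE, a lipid carrier, was at 2.15 ± 0.572 CPM in sh_SRSF3, against 0.984 ± 0.358 CPM in sh_control (log2 change 1.12), a call lost without sh_SRSF3 replicate 1 (adjusted p = 0.137) and without sh_control replicate 2 (0.138).

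Of 11 fatty acid genes that SREBP1 is known to act on, 2 rose and 4 fell in sh_TDP43 (median log2 change -0.1), and 2 rose and 5 fell in sh_SRSF3 (median -0.16). ACACA, the carboxylase that makes malonyl-CoA, was at 197 ± 23.4 CPM in sh_TDP43 and at 230 ± 11.5 CPM in sh_SRSF3, against 104 ± 1.61 CPM in sh_control (log2 change 0.92 in sh_TDP43 and 1.14 in sh_SRSF3). The desaturases fell: FADS1 fell by 1.07 in sh_TDP43 and by 1.79 in sh_SRSF3, FADS2 fell by 0.53 in sh_TDP43 and by 2.19 in sh_SRSF3, and SCD fell by 0.95 in sh_SRSF3. ACSS2, which makes acetyl-CoA from acetate, fell by 1.56 in sh_SRSF3, and ME1, a source of NADPH, fell by 0.84 in sh_TDP43. These lists were drawn up from textbook roles and describe counts; no list was tested as a whole.

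**Figure D3:**
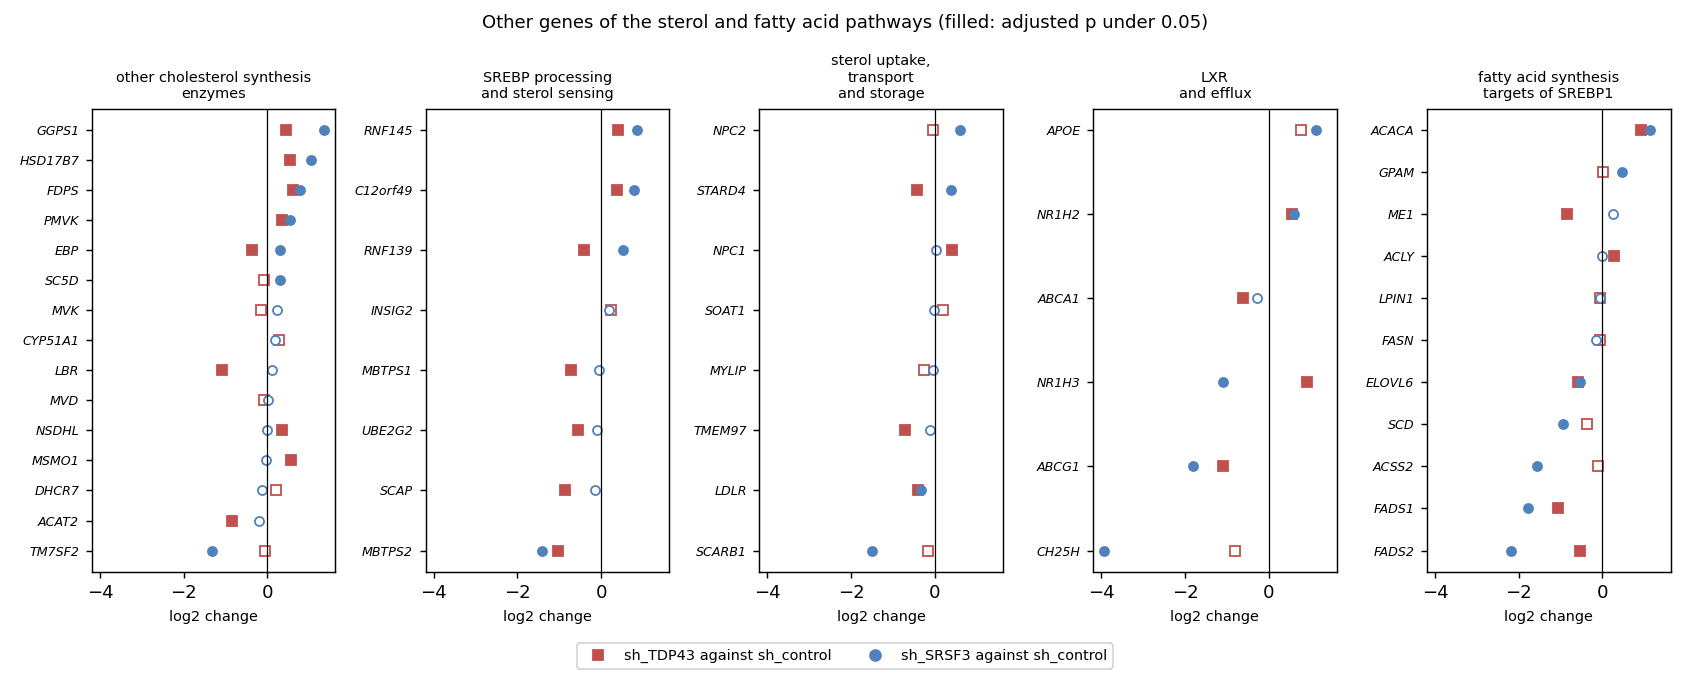
Log2 change against sh_control (x axis) of other listed genes, 1 panel per list, ordered by the change in sh_SRSF3; squares are sh_TDP43, circles are sh_SRSF3 and filled symbols passed an adjusted p of 0.05. CH25H lies farthest left in sh_SRSF3, and NR1H3 lies right of 0 in sh_TDP43 and left of 0 in sh_SRSF3.

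The RIP libraries ask how much of each message was recovered in the RIP of a tagged protein relative to its input. The labels name no control RIP, so RNA held by the protein and RNA carried along unspecifically cannot be told apart. Each RIP and each input is 1 library, so no value below has a replicate error and no test was made. Levels are FPKM, scaled per kilobase of gene and per 1e6 reads, and ratios are log2((RIP FPKM + 1)/(input FPKM + 1)). A second deposited table holds a normalised signal for the same libraries, in a unit that its header does not name, and its ratio is given beside the first. Depth inferred from the FPKM steps was 27.7 to 28.4 M reads per library (M, 1e6). At that depth the 8 genes held about 172 to 6057 reads each. The step was sought only within a window set beforehand, which confined the depth that could be found. The read numbers, and the counting error used in the last section, rest on that assumption. The inputs differed in the tagged messages: TARDBP was at 14.2 FPKM in the Flag-TDP43 input and at 1.76 FPKM in the Flag-SRSF3 input, and SRSF3 was at 29.3 FPKM in the Flag-TDP43 input and at 54.9 FPKM in the Flag-SRSF3 input.

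In the FPKM values of the Flag-TDP43 RIP, HMGCS1 and IDI1 stood at about 2-fold their input level, and SREBF1 and LSS below it. In the signal table HMGCS1 was raised less and LSS was near its input level. HMGCS1 was at 9.04 FPKM in the RIP and at 4.02 FPKM in the input, a log2 ratio of 1.0, where the signal table gave 0.44. IDI1 was at 30.8 FPKM in the RIP and at 15.0 FPKM in the input, a log2 ratio of 0.99, close to the 0.85 of the signal table. SREBF1 was at 8.67 FPKM in the RIP and at 20.5 FPKM in the input, and its log2 ratios of -1.15 in FPKM and -1.2 in the signal table lay at percentiles 10.2 and 9.18 of the genes measured. LSS was at 3.05 FPKM in the RIP and at 12.5 FPKM in the input, a log2 ratio of -1.74, but the signal table held 28 in the RIP and 29.4 in the input, a log2 ratio of -0.07. The FPKM table and the signal table thus disagree on LSS, and which is right was not tested. INSIG1 had a log2 ratio of 0.42 (44.9 FPKM in the RIP and 33.3 FPKM in the input; -0.01 in the signal table), SQLE of 0.04 (0.07 in the signal table), SREBF2 of -0.04 (-0.19 in the signal table) and FDFT1 of -0.12 (0.6 in the signal table).

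In the Flag-SRSF3 RIP the SREBP genes were recovered above their input level and IDI1, INSIG1, LSS and, mainly in the signal table, HMGCS1 below it. The median log2 ratio of the genes measured was 0.18 in FPKM and 0.03 in the signal table. SREBF1 was at 27.2 FPKM in the RIP and at 13.2 FPKM in the input, a log2 ratio of 0.99 (0.67 in the signal table), at percentile 85.1 of the genes measured. SREBF2 was at 14.9 FPKM in the RIP and at 9.56 FPKM in the input, a log2 ratio of 0.59 at percentile 70.2 (1.0 at percentile 91.4 in the signal table). IDI1 was at 4.52 FPKM in the RIP and at 8.13 FPKM in the input, a log2 ratio of -0.73 at percentile 11.8 (-0.87 in the signal table). INSIG1 was at 19.1 FPKM in the RIP and at 24.4 FPKM in the input, a log2 ratio of -0.34 at percentile 24.2 (-0.6 in the signal table). LSS was at 0.856 FPKM in the RIP and at 9.85 FPKM in the input, a log2 ratio of -2.55 at percentile 0.683, where the signal table gave -0.58 at percentile 17.8. FDFT1 had a log2 ratio of 0.17 (0.42 in the signal table), SQLE of 0.05 (-0.02 in the signal table) and HMGCS1 of -0.07 (-0.58 in the signal table). In the RIP table, genes on the opposite strand overlap HMGCS1, IDI1, FDFT1, LSS, SREBF1 and SREBF2, and no source used here says whether those values were made with strand.

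**Figure D4:**
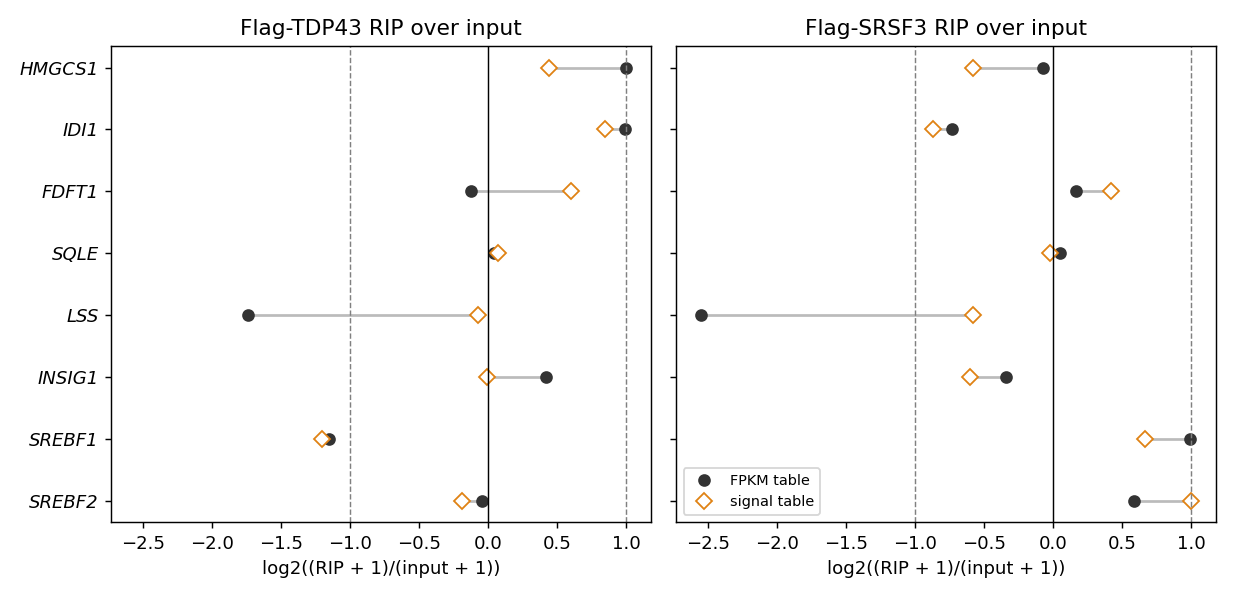
Log2 ratio of RIP over input (x axis, pseudocount 1) of each gene in the Flag-TDP43 RIP (left) and the Flag-SRSF3 RIP (right), 1 library each, from the FPKM table (filled) and the signal table (open), joined by a line; dashed lines mark 2-fold. SREBF1 lies at -1.15 in the Flag-TDP43 RIP and at 0.99 in the Flag-SRSF3 RIP, and LSS has the longest line in both panels.

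Counted past 2-fold, 3 of the 8 genes passed in the Flag-TDP43 RIP, HMGCS1 at the limit itself on the higher side and LSS and SREBF1 on the lower side, where 28.9% of the 10647 genes with at least 1 FPKM passed (15.9% higher and 13.1% lower). In the Flag-SRSF3 RIP 1 of the 8 passed, LSS on the lower side, where 21.5% of 10693 genes passed (14.7% higher and 6.82% lower). In the signal data 1 of 8 passed in the Flag-TDP43 RIP, SREBF1 on the lower side, where 25.0% of 13786 genes passed (11.4% higher and 13.5% lower). There too, 1 of 8 passed in the Flag-SRSF3 RIP, SREBF2 on the higher side, where 15.8% of 13869 genes passed (8.59% higher and 7.24% lower). The median log2 ratio of the 8 genes was 0.0 in the Flag-TDP43 RIP and -0.01 in the Flag-SRSF3 RIP, where that of the genes measured was 0.03 and 0.18. The authors' deposited table of FPKM values gives log2 fold changes without a pseudocount, such as 1.17 for HMGCS1, 1.04 for IDI1 and -1.24 for SREBF1 in the Flag-TDP43 RIP, and 1.04 for SREBF1, 0.64 for SREBF2 and -3.52 for LSS in the Flag-SRSF3 RIP. In the authors' deposited table of signal values all 8 genes carry the label Bind in both label columns, which do not name their protein. So do 15.4% of its 60675 genes, but that share includes genes with little or no signal. Only 13786 of them had a signal of at least 1 in the Flag-TDP43 RIP or its input. The share with the label among such genes was not counted, so 15.4% is not a fair background for the 8.

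The inputs, from cells that overexpressed either protein, were also set side by side. With the pseudocount of 1, none of the 8 genes differed by 2-fold, where 7.66% of 10305 genes did (3.97% higher and 3.69% lower in the Flag-TDP43 input). The log2 ratio of the Flag-TDP43 input over the Flag-SRSF3 input was 0.84 for HMGCS1 (4.02 FPKM in the Flag-TDP43 input and 1.8 FPKM in the Flag-SRSF3 input, low levels at which the pseudocount narrows the ratio), 0.81 for IDI1, 0.6 for SREBF1, 0.43 for INSIG1, 0.32 for LSS, -0.04 for FDFT1, -0.13 for SQLE and -0.39 for SREBF2. With a pseudocount of 0.1, 1 of the 8, HMGCS1, passed 2-fold. None of the 8 differed by 2-fold in the signal table either, where 2.96% of 13677 genes did (1.44% higher and 1.52% lower), and there the same ratio was 0.42 for HMGCS1, 0.18 for IDI1 and -0.43 for SREBF2. INSIG1, of the 8 genes the one lowered most in both knockdowns, held 33.3 FPKM in the Flag-TDP43 input and 24.4 FPKM in the Flag-SRSF3 input.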

How the data were processed

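Per the file headers, the authors' deposited count table holds raw counts of reads over the exons of each gene, made by featureCounts v1.4.6-p5 with no strand option, and the exon length. The submitters' processing notes list GRCh37, Cufflinks, StringTie 1.3.0, HISAT2 2.0.5 and STAR 2.5.2a without a role. The authors' RIP table gives FPKM and log2 fold changes per the file headers, and another deposited table gives, for the same libraries, a normalised signal whose unit no source used here names; it was added as an alternative after seeing the data. Of the count table, 2 sample columns match no label and were not used.

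The two-sided quasi-likelihood F-test of edgeR 4.0.16 (R 4.3.3) was applied to the counts after filterByExpr and TMM scaling. The 6 libraries stood in a single fit without covariates, with 3 residual degrees of freedom and Benjamini-Hochberg adjustment over 15026 genes. The procedure was tested on simulated counts in which a small share of genes changed, in sh_TDP43 only. That check does not cover changes as broad as those called here. RIP ratios used a pseudocount of 1 FPKM and have no test. Alternatives were DESeq2 1.42.0, upper-quartile scaling, no filter, 2-group fits, a replicate block, each library left out, a pseudocount of 0.1, other backgrounds, centring and the authors' log2 fold changes. Symbols came from the RIP table for 27068 of 27745 genes and from a reference table for 89. Duplicates were not repeats of one library: their counts differed beyond sampling noise, with a chi-square per gene of 13 in sh_TDP43, 12 in sh_SRSF3 and 24.6 in sh_control.

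The 8 genes, the lists and the tests were chosen with earlier results of these data known. Genes named from a list are the 6 of largest absolute log2 change among those called in either knockdown against sh_control with a mean of at least 1 CPM. For each of the 8 genes, the 2 of nearest profile are named. A few genes that these rules choose are not reported here, though counts and medians of lists include them. Gene coordinates are those of the count table (GRCh37), and promoter sequences are from RefSeq (GRCh38.p14).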

Additional observations from a re-analysis of the deposited data

Results flagged for a closer look

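For 3 of the 8 genes, the changes against sh_control pointed in opposite directions in the knockdowns and the knockdowns themselves differed. The knockdowns differed in 65.5% of all genes tested, and the share of all genes that met both conditions was not counted. The log2 difference of sh_TDP43 over sh_SRSF3 was 1.03 for FDFT1 (adjusted p = 1.63e-06), -0.99 for HMGCS1 (adjusted p = 2.81e-06) and -0.88 for SQLE (adjusted p = 0.000105) by edgeR's quasi-likelihood test. Of these genes, FDFT1 passed against sh_control in sh_TDP43 alone, and HMGCS1 and SQLE in sh_SRSF3 alone.

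Among the listed genes, the search took only those chosen by the naming rule and asked also for a call against sh_control in both knockdowns. Of those reported here, NR1H3 (log2 difference 2.01, adjusted p = 2.92e-07) and STARD4 (-0.82, adjusted p = 2.02e-05 by the same edgeR test) met this. Listed genes outside the naming rule were left out of that search, and some of them met it too. NR1H3 passed against sh_control in both knockdowns in opposite directions, higher in sh_TDP43 and lower in sh_SRSF3. STARD4 did so the other way round, with calls against sh_control that leaving out a library removed.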

How the results depend on the processing

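The main limits are 2 libraries per shRNA group and 1 library per RIP and input. With upper-quartile scaling the median log2 change of all genes was 0.09 in sh_TDP43 against sh_control (0.0 with TMM), -0.19 in sh_SRSF3 (-0.03) and 0.29 between the knockdowns (0.04). It moved the split of higher and lower calls to 3956 and 2978 in sh_TDP43 (3105 and 3623 with TMM), to 3959 and 6020 in sh_SRSF3 (4881 and 5164) and to 6451 and 3378 between the knockdowns (5041 and 4801). Of 264 values of log2 changes of the 8 genes under an alternative, 241 kept their direction and their side of the threshold, 10 lost and 5 gained a call, and 8 changed sign; of 550 such values of the listed genes chosen by the naming rule, 532 kept direction and call and 18 lost the call. In sh_TDP43 against sh_control 6 genes were called, and 4 to 6 with a library left out, 4 with upper-quartile scaling and 7 with the replicate block. In sh_SRSF3 7 were called, and 8 with upper-quartile scaling. All genes called in sh_TDP43 numbered 6728, and 4486 without sh_TDP43 replicate 2. The changes of sign were those of log2 differences near 0 between the knockdowns: INSIG1 gave 0.0 with DESeq2, -0.02 with the replicate block and -0.39 to 0.32 with a library left out, and SREBF2 gave 0.13 with upper-quartile scaling and -0.23 to 0.01 with a library left out. Past 2-fold, the Flag-TDP43 RIP had 1 gene in the signal table, the Flag-SRSF3 RIP had 2 with a pseudocount of 0.1 and 2 by the authors' deposited table, and the inputs had 1 with a pseudocount of 0.1. The RIP and input ratios were judged by another measure, their counting error, and under other alternatives. Their stability thus cannot be ranked against that of the shRNA changes. Of 88 such ratios of the 8 genes under an alternative, 31 moved beyond their counting error and 57 did not. Libraries of the same replicate number were only weakly alike (correlation of deviations 0.12, 0.075 and 0.088), and the main fit did not pair them. With the replicate block 7672, 10565 and 10413 genes were called in the 3 comparisons, against 6728, 10045 and 9842 without it. Among the 8 genes SQLE then gained a call in sh_TDP43 (edgeR adjusted p = 0.0384).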
